A study of Mus musculus with 20 samples.

Results

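Tumors of the same treatment group differed from one another in how much muscle, skin, lymphoid, fat and stromal RNA their arrays showed, and these differences are described here gene by gene. All 20 arrays of the series were used. From each gene's log2 value the mean of its own vector group was subtracted, so that what remains is how far an array stood from the other arrays that received the same vector. The values were kept for the 19938 genes that have a probe set with 1 gene symbol, out of 35556 probe sets, and where a gene had several probe sets, only that of highest average level over the arrays was used. The tumors were implants of LLC-1, a Lewis lung carcinoma cell line, in C57Bl/6 hosts, and all had received intratumoral adenovirus, 5 injections 48 h apart, each of 25 µl at a log10 load of 8 infectious units. The vectors carried p19Arf together with IFNbeta (called the combination here), p19Arf alone, IFNbeta alone, or eGFP, a fluorescent protein, as the control. Each group had 5 arrays, every array was of bulk tumor RNA, and the eGFP tumors carried an adenovirus too, so no group was without virus. The labels give neither the site of the implant nor the age of the hosts, and they do not say whether each array came from a separate mouse, so spreads and p-values measure the differences between these samples, whatever their source.

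An implanted tumor is removed together with whatever host tissue adheres to it or has grown into it. Skeletal muscle fibres are filled with a small set of contractile proteins, the epidermis with keratins and envelope proteins, and fat cells with lipid carriers and adipokines. B cells gather with T cells, chemokine-producing stroma and specialised venules in lymph nodes and in lymphoid aggregates within tissues. Because each of these tissues makes abundant transcripts that tumor cells lack or hold at low level, such transcripts show in bulk RNA how much of the tissue is present, although more cells of a type and more RNA per cell cannot be told apart.

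Most genes varied little within a group. The within-group standard deviation (SD, over 16 degrees of freedom) had a median of 0.186 log2 units over all genes, 95% of genes were below 0.354 and 99% below 0.5. It was over 0.5 in 199 genes, which is 0.998% of all, and over 1 in 8 genes. Those 8 were Myl1 and Myh4, a myosin light chain and a myosin heavy chain of fast muscle fibres; Jchain, the joining chain of secreted antibody; the immunoglobulin kappa segment Igkv9-120 and another of the Igkv10 family; the small nucleolar RNAs Snora33 and Snord118; and Car3, a carbonic anhydrase abundant in fat and muscle. Atp5md, a small subunit of the mitochondrial ATP synthase, and Lum, which encodes the collagen-binding proteoglycan lumican, followed at 0.99 and 0.95. The 30th gene was Neb at 0.77, and the first one after it was Des at 0.76, both of muscle.

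**Figure D1:**
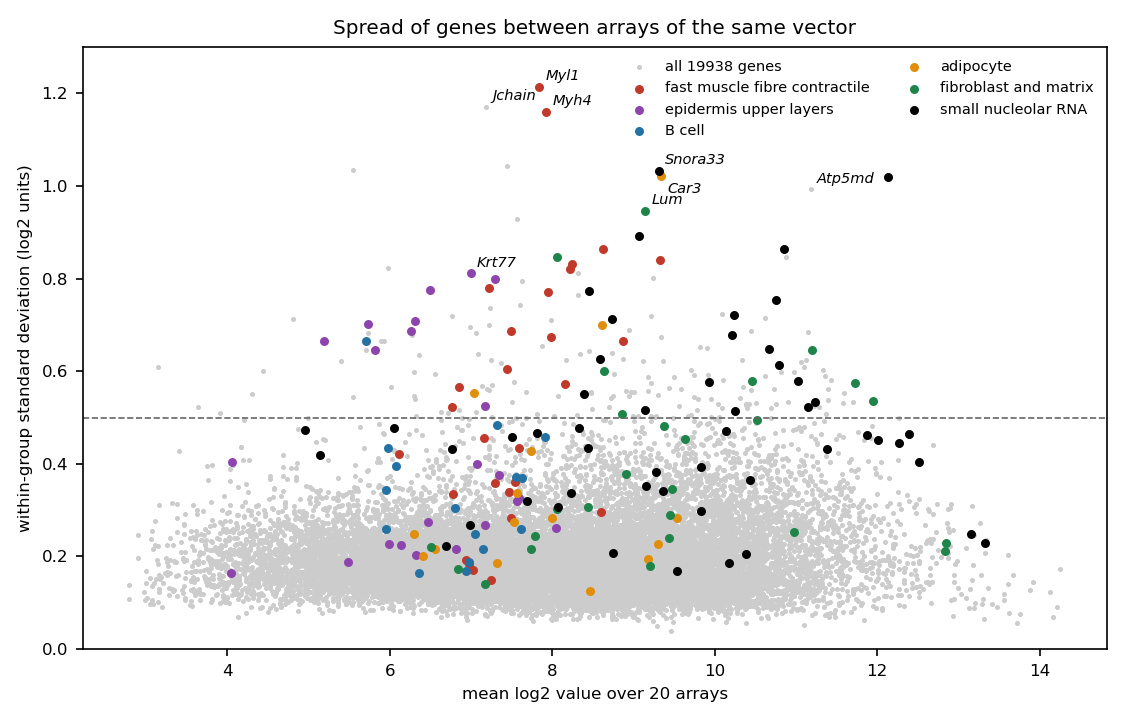
Within-group SD of each of 19938 genes (vertical axis, log2 units) against its mean log2 value over 20 arrays (horizontal axis), with members of 6 gene lists in colour and a dashed line at 0.5. The dashed line is passed by 199 genes, and the upper margin holds Myl1 (1.21), Jchain (1.17), Myh4 (1.16), Snora33 (1.03), Car3 (1.02) and Lum (0.95).

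Of the 100 most variable genes, 12 were contractile genes of fast muscle, 12 small nucleolar RNAs, 11 other small RNAs, 8 genes of the upper epidermis, 5 immunoglobulin genes outside the plasma cell list and 4 fibroblast genes. The fast muscle list makes up 0.140% of all genes and the upper epidermis list 0.115%. The small nucleolar RNAs make up 0.256%, the other small RNAs 1.58%, those immunoglobulin genes 0.0702% and the fibroblast list 0.130%. No list held 38 of the 100. By vector, the median SD of a gene was 0.187 on the combination arrays, 0.203 on the p19Arf arrays, 0.158 on the IFNbeta arrays and 0.147 on the eGFP arrays. An SD over 0.5 was seen in 463 genes among the combination arrays, 356 among the p19Arf arrays, 253 among the IFNbeta arrays and 130 among the eGFP arrays. Differences within the groups made up 74.1% of the variance of all genes together, where the degrees of freedom alone would give 84.2%. The arrays of a group correlated with each other at 0.967 to 0.996 over genes, and array medians lay between 7.49 and 7.61.

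Skeletal muscle gave the most variable gene list. Of its 28 fast-fibre contractile genes, 15 had an SD over 0.5, and the list score, the mean log2 value of its members on an array, had an SD of 0.495. The median correlation between 2 members over the 20 deviations was 0.778, against -0.012 over all pairs of genes, and 83.6% of member pairs exceeded 0.5, against 16.3% of all pairs. Promoters of 2 members, Acta1, which encodes skeletal alpha-actin, and Myh4 are shown because both varied widely and their start regions hold motifs known from muscle genes. They are the 250 bases before the RefSeq start in GRCm38.p6, chr8:123894776-123895025 on the minus strand for Acta1 and chr11:67237562-67237811 on the plus strand for Myh4, each written along the strand of its gene. Capitals mark the E-box CANNTG, which MyoD-family factors bind, and the CArG box, which serum response factor binds.
Acta1: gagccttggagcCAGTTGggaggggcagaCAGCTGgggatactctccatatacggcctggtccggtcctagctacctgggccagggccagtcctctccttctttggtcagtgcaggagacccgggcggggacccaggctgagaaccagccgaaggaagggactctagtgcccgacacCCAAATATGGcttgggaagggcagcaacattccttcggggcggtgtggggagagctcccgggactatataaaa
Myh4: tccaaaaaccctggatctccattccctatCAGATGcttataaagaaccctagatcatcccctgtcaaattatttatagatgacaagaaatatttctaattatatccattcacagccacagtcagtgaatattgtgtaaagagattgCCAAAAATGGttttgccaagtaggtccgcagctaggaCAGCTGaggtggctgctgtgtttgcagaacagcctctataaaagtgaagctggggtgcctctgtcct
Each window held 1 CArG box, beginning 73 bases before the start in Acta1 and 104 bases in Myh4, and 2 E-boxes. Of the 20 fast muscle members with such a window, 2 held a CArG box on either strand, against 1.4% of 27025 genes with a window. The MEF2 motif, CTA and TAG with 4 bases between them, was found in 4 of the 20, against 3.23% of all, and the E-box in 15 of the 20, against 66.0%. The CArG box was searched as CC and GG around 6 bases that are A or T. The CArG box and E-box did not overlap in the windows shown, and a match in letters says nothing of binding.

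Myl1 stood at 8.29, 9.56, 6.5, 7.9 and 8.78 on the combination arrays, 9.11, 8.43, 6.0, 6.85 and 7.48 on the p19Arf arrays, 6.65, 8.66, 7.89, 10.79 and 8.34 on the IFNbeta arrays, and 5.75, 7.91, 6.64, 7.46 and 7.73 on the eGFP arrays. Arrays thus differed within every group, and the groups overlapped: the span from lowest to highest was over 2 log2 units in each. The highest eGFP array reached only 7.91, against 9.56 in the combination, 9.11 in p19Arf and 10.79 in IFNbeta. Myh4, the heavy chain of the fastest fibre type, stood at 7.21, 9.87, 6.41, 8.35 and 9.36 on the combination arrays, 8.81, 9.19, 6.78, 6.66 and 8.32 on the p19Arf arrays, 6.61, 9.23, 8.61, 10.08 and 8.32 on the IFNbeta arrays, and 6.7, 6.58, 6.96, 6.58 and 7.83 on the eGFP arrays. The highest value was again on IFNbeta replicate 4, and 4 of the 5 eGFP arrays were below 7. Acta1 stood at 9.66, 10.73, 8.22, 9.6 and 10.04 on the combination arrays, 9.94, 10.24, 8.2, 8.67 and 9.2 on the p19Arf arrays, 8.24, 9.85, 10.24, 10.85 and 9.38 on the IFNbeta arrays, and 8.07, 9.11, 8.43, 8.49 and 9.39 on the eGFP arrays. For Acta1 each group held arrays above and below 9, with IFNbeta replicate 4 and combination replicate 2 highest. The deviations of Myl1 and Myh4 had a Pearson correlation of 0.828 and a Spearman correlation of 0.776, and Pearson's was 0.766 without IFNbeta replicates 4 and 1, the arrays farthest from the median. In this and later correlations without 2 arrays, the deviations kept the group means of all 5 arrays.

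The same arrays were high or low across the list. The fast muscle score stood furthest above its group mean on IFNbeta replicate 4 (0.932), p19Arf replicate 2 (0.659) and combination replicate 2 (0.542), and furthest below on IFNbeta replicate 1 (-0.821), combination replicate 3 (-0.716) and p19Arf replicate 3 (-0.588). On IFNbeta replicate 4, 27 of 28 members were above their group mean and 23 were the highest of the group. The members that followed the rest most closely were Tnnt3 and Ttn, for fast troponin T and the sarcomere spring titin, at 0.98 each. Tcap and Jph1, for a cap of titin and a membrane-junction protein, followed at 0.22 each. By group the score averaged 7.83 ± 0.49 in the combination, 7.61 ± 0.52 in p19Arf, 7.82 ± 0.65 in IFNbeta and 7.18 ± 0.22 in eGFP (SD, n = 5 each).

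As a score, the list of muscle energy genes moved with the contractile ones, though its members co-varied less with each other. The score of that list correlated with the fast-fibre score at 0.907 (Spearman 0.904, and 0.858 without IFNbeta replicates 4 and 1). Ckm, muscle creatine kinase, had an SD of 0.64 and Pygm, muscle glycogen phosphorylase, 0.56, while Eno3, muscle enolase, reached 0.30. Of the 14 energy members only 2 had an SD over 0.5. Their median member correlation was 0.258, and 28.6% of their pairs exceeded 0.5. The 10 slow-fibre genes, among them Myh7, Tnni1 and Myl2, varied much less: their score had an SD of 0.109, no member exceeded 0.5, and the score correlated with that of the fast fibres at 0.137. The slow-fibre score correlated with the mean of 1027 olfactory receptor genes, whose median level was 5.40, at 0.657, and with that mean regressed out its SD was 0.0852. The 5 genes outside the lists closest to the fast-fibre score were Myot, Tmod4, Pdlim3, Ankrd23 and Nrap, at 0.937 to 0.908. Myot encodes the Z-disc protein myotilin and Tmod4 a cap of actin filaments in muscle.

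**Figure D2:**
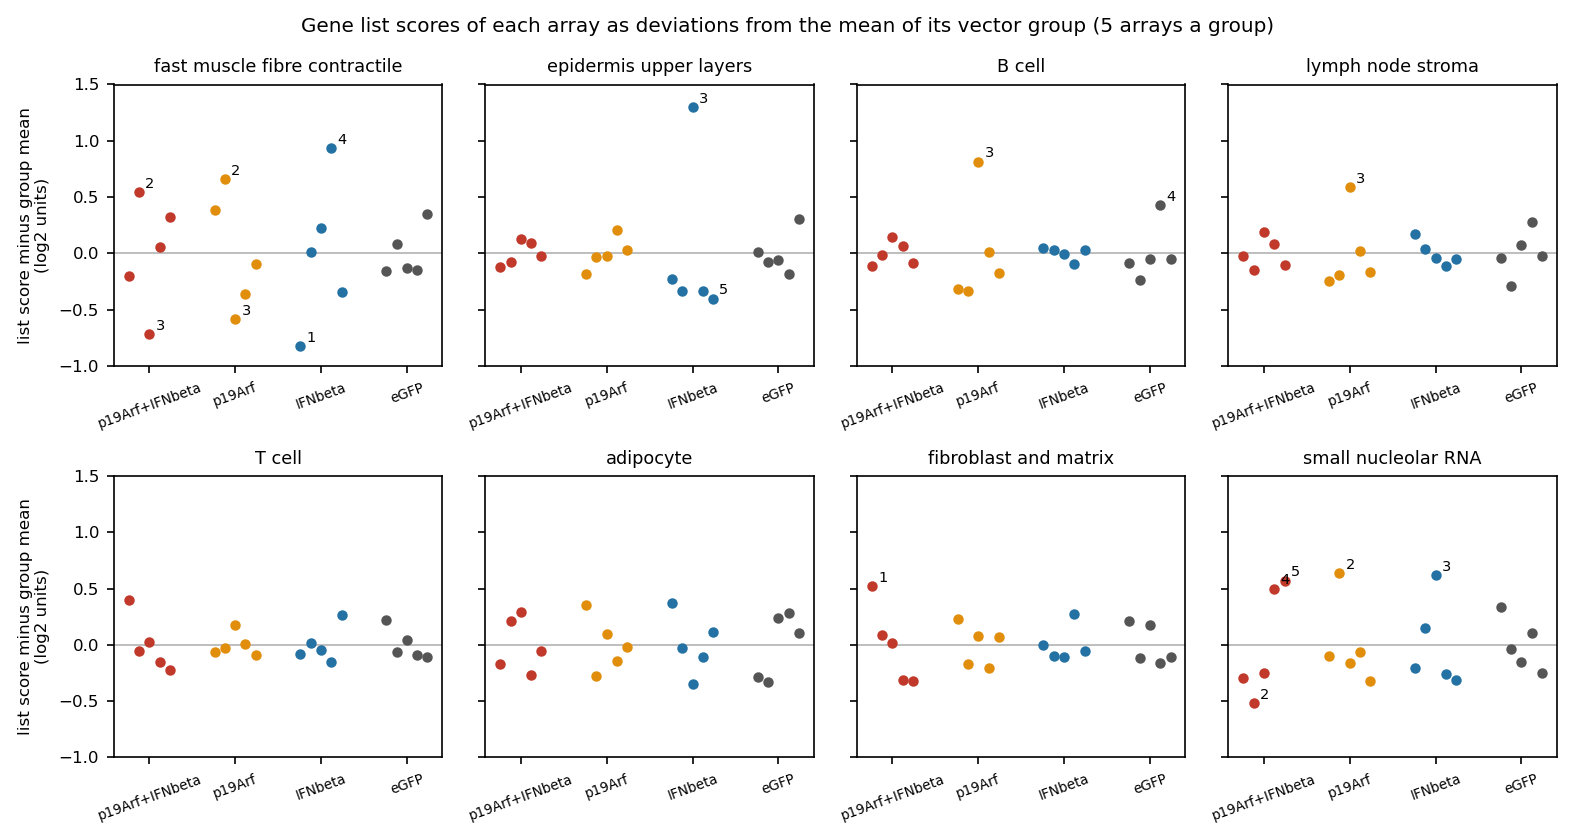
Scores of 8 gene lists on each array as deviations from the mean of the array's vector group (vertical axes, log2 units), with groups along the horizontal axes and replicate numbers printed at deviations of 0.4 or more in size. Fast muscle spreads over arrays of every group, least in eGFP (SD 0.22). The epidermis rises on IFNbeta replicate 3 (1.297) and the B cell list on p19Arf replicate 3 (0.815) and eGFP replicate 4 (0.432).

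Epidermal genes varied in another way, through 1 array. The basal layer, marked by Krt5 and Krt14, and the upper layers, marked by Krt1, Krt10 and the envelope protein loricrin (Lor), both peaked on IFNbeta replicate 3. Promoters of Krt10 and Lor are shown because both genes were far higher on that array than on any other, and they encode a filament and an envelope protein of the same cells. They are the 250 bases before the RefSeq start in GRCm38.p6, chr11:99389365-99389614 for Krt10 and chr3:92083143-92083392 for Lor, both on the minus strand and written along the strand of the gene. Capitals mark the TATA box TATAAA and the AP-1 motif TGANTCA.
Krt10: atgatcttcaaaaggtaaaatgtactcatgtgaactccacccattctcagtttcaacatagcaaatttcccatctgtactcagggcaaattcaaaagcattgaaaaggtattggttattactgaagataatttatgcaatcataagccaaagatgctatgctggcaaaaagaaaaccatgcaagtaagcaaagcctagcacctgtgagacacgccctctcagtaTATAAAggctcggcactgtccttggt
Lor: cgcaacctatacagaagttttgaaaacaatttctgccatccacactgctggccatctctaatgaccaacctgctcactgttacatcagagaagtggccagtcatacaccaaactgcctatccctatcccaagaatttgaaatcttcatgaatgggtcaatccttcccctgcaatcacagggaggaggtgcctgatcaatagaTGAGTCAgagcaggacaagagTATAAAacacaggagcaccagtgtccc
The TATA box began 26 bases before the start in Krt10 and 27 bases in Lor, and the window of Lor held 1 AP-1 motif. Of the 19 upper-layer members with a window, 7 held the AP-1 motif on either strand, which is 36.8%, against 6.87% of all genes with a window, and 6 held the TATA box, 31.6% against 13.0%.

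Krt10 stood at 6.99, 7.04, 7.23, 7.15 and 7.18 on the combination arrays, 7.21, 7.18, 7.02, 7.17 and 7.22 on the p19Arf arrays, 7.01, 6.94, 10.41, 6.97 and 6.89 on the IFNbeta arrays, and 7.15, 7.02, 7.26, 6.97 and 7.91 on the eGFP arrays. Only IFNbeta replicate 3 exceeded 8, and the next highest array was eGFP replicate 5. Krt77, another keratin, stood at 6.6, 6.68, 6.99, 6.89 and 6.14 on the combination arrays, 6.89, 6.77, 6.96, 6.95 and 7.05 on the p19Arf arrays, 6.87, 6.67, 10.23, 6.72 and 6.65 on the IFNbeta arrays, and 6.87, 6.87, 7.01, 6.75 and 7.38 on the eGFP arrays. Krt5 stood at 6.81, 6.95, 7.17, 6.75 and 6.92 on the combination arrays, 6.88, 6.76, 7.05, 7.28 and 7.02 on the p19Arf arrays, 7.03, 6.95, 9.93, 6.84 and 6.88 on the IFNbeta arrays, and 7.15, 7.58, 7.27, 7.14 and 8.41 on the eGFP arrays. On IFNbeta replicate 3, all 11 basal members and 22 of 23 upper-layer members were above their group mean, and 11 and 18 of them were the highest of the group. Without that array the SD of Krt10 was 0.208 instead of 0.80, that of Lor 0.253 instead of 0.78, and that of the upper-layer score 0.136 instead of 0.386. The median correlation between upper-layer members was 0.717 with that array and 0.433 without it.

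The second array with skin signal, eGFP replicate 5, had a basal score 0.485 above its group mean and an upper-layer score 0.307 above it. The scores of the 2 layers correlated at 0.980 over the 20 arrays, and at 0.946 without IFNbeta replicate 3. Perp, a desmosome protein in no list, was also highest on IFNbeta replicate 3, at 10.04, and the nearest outside genes were Pof1b, Kprp, Abca12, Perp and Lce1a1, at 0.986 to 0.977. Krt2, another keratin of the upper epidermis, did not follow (SD 0.19, correlation 0.14 with the other members). The hair follicle score was 0.099 above its group mean on IFNbeta replicate 3 and 0.344 above it on eGFP replicate 5.

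Lymphoid genes fell into sets with different arrays. The B cell list had an SD of 0.277 and a median member correlation of 0.656, which were 0.162 and 0.389 without p19Arf replicate 3. Ms4a1, the B cell surface protein CD20, stood at 5.43, 5.58, 5.62, 5.52 and 5.23 on the combination arrays, 5.61, 5.52, 7.65, 5.88 and 5.26 on the p19Arf arrays, 5.65, 5.48, 5.5, 5.23 and 5.59 on the IFNbeta arrays, and 5.77, 5.38, 5.32, 7.44 and 5.43 on the eGFP arrays. The 2 high arrays were p19Arf replicate 3 and eGFP replicate 4, and the other 18 lay between 5.23 and 5.88. Glycam1, the sulfated mucin of high endothelial venules, through which lymphocytes enter lymph nodes, stood at 6.3, 6.39, 6.48, 6.22 and 6.0 on the combination arrays, 6.12, 6.08, 7.37, 6.49 and 6.29 on the p19Arf arrays, 6.15, 6.09, 6.25, 6.02 and 6.15 on the IFNbeta arrays, and 6.35, 6.05, 6.16, 7.31 and 6.43 on the eGFP arrays. The same 2 arrays were high and the rest lay between 6.00 and 6.49. Over the 20 arrays the deviations of Ms4a1 and Glycam1 correlated at 0.947 (Spearman 0.838), and at 0.773 without those 2 arrays. The group means were not recomputed for the last value, so the 2 arrays still lowered the deviations of the others in their groups.

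Cxcl13, the chemokine that draws B cells into follicles, was at 8.87 on p19Arf replicate 3 and 8.64 on eGFP replicate 4. It also reached 7.94 on IFNbeta replicate 1 and 7.86 on eGFP replicate 3, so its correlation with Ms4a1 was 0.779 (Spearman 0.519) and fell to 0.245 without the 2 arrays. On p19Arf replicate 3, all 16 B cell members were above their group mean, and 12 were the highest of the group, among them Cd79a and Cd79b, the signalling chains of the B cell receptor, at 7.35 and 9.17. The lymph node stroma score correlated with the B cell score at 0.939 (Spearman 0.869, and 0.849 without the 2 arrays). Members of the stroma list co-varied less than those of the B cell list, with a median member correlation of 0.208 against 0.656. On p19Arf replicate 3 all 6 stroma members were above their group mean, but only 2 were the highest of the group. Of the 6 stroma members, Ccl19 and Madcam1, a T zone chemokine and a mucosal addressin, had SDs of only 0.20 and 0.21. The genes outside the lists nearest to the B cell score were the Igkv10 family segment, H2-Eb2, Fcrl1, Igkv6-20 and Bcl11a, at 0.886 to 0.787.

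Antibody genes added further arrays. Jchain stood at 6.43, 7.26, 9.49, 6.4 and 7.03 on the combination arrays, 6.59, 7.34, 9.72, 6.27 and 6.2 on the p19Arf arrays, 7.19, 6.71, 7.86, 6.46 and 7.58 on the IFNbeta arrays, and 7.79, 6.14, 6.82, 8.69 and 5.85 on the eGFP arrays. Its 3 highest arrays were p19Arf replicate 3, combination replicate 3 and eGFP replicate 4, of which combination replicate 3 was not high in Ms4a1 (5.62). Igha, the constant region of IgA, stood at 6.93, 8.49, 8.7, 7.04 and 6.8 on the combination arrays, 7.59, 7.23, 9.68, 7.83 and 6.97 on the p19Arf arrays, 8.2, 7.11, 9.01, 6.49 and 7.01 on the IFNbeta arrays, and 7.53, 6.57, 7.38, 8.16 and 6.72 on the eGFP arrays. Jchain and Igha correlated at 0.801 (Spearman 0.668, and 0.671 without p19Arf replicate 3 and combination replicate 3). The variable segments differed from one another: the Igkv10 family segment was high on p19Arf replicate 3 (8.56) and eGFP replicate 4 (7.67), and Igkv9-120 on IFNbeta replicate 1 (10.12) and p19Arf replicate 3 (9.69). Variable segments resemble each other in sequence, so their probe sets may take signal from relatives. The plasma cell list as a whole had a median member correlation of -0.027. Mzb1, a chaperone of antibody assembly, and the transcription factor Irf4 followed the other members at 0.89 and 0.70, against -0.23 for Sdc1, which epithelial cells also express, and 0.01 for Prdm1.

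T cell genes peaked elsewhere, on combination replicate 1. The T cell score was 0.398 above its group mean there, and 0.264 on IFNbeta replicate 5. Cd3g, a chain of the T cell receptor complex, reached 9.05 on combination replicate 1 and 9.07 on IFNbeta replicate 5, and Cd8a 9.33 and 8.94. The list had an SD of 0.168 and a median member correlation of 0.518, or 0.131 and 0.378 without combination replicate 1. Its score correlated with the NK and cytotoxic score at 0.852 (Spearman 0.836) and with the B cell score at 0.185. Gzma, a protease of cytotoxic granules, stood at 9.36, 7.22, 7.1, 7.32 and 7.0 on the combination arrays, 6.7, 7.2, 7.07, 7.5 and 7.46 on the p19Arf arrays, 7.44, 6.99, 7.69, 7.01 and 7.24 on the IFNbeta arrays, and 7.29, 6.63, 6.81, 6.87 and 6.6 on the eGFP arrays. Combination replicate 1 was the only array above 8, and Klrc1, a receptor of NK and T cells, was also highest there, at 8.82. The outside genes closest to the T cell score were Spn, Ctsw, Nup210, Itgal and Cxcr6, at 0.915 to 0.877, of which Ctsw encodes a protease of cytotoxic lymphocytes and Cxcr6 a chemokine receptor of T cells.

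The same array carried part of the matrix genes. Sfrp2, a secreted Wnt modulator of fibroblasts, stood at 10.69, 9.49, 9.66, 8.38 and 8.16 on the combination arrays, 8.85, 8.5, 8.85, 7.76 and 8.4 on the p19Arf arrays, 8.51, 8.47, 8.31, 8.77 and 8.4 on the IFNbeta arrays, and 8.86, 8.18, 8.48, 8.1 and 7.84 on the eGFP arrays. Postn, for the matrix protein periostin, was at 11.80 on combination replicate 1, and Saa3, an acute-phase protein, at 11.31. Clustering the 500 most variable genes by their correlation (average linkage, tree height 0.4, at least 10 genes) put Sfrp2, Postn, Lox, Thbs2 and Mmp2 with Saa3, Gzma and Klrc1 in a module of 18 genes, whose mean deviation was 1.22 on that array. The fibroblast and T cell scores correlated at 0.572 (Spearman 0.409), and at 0.262 without combination replicate 1.

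**Figure D3:**
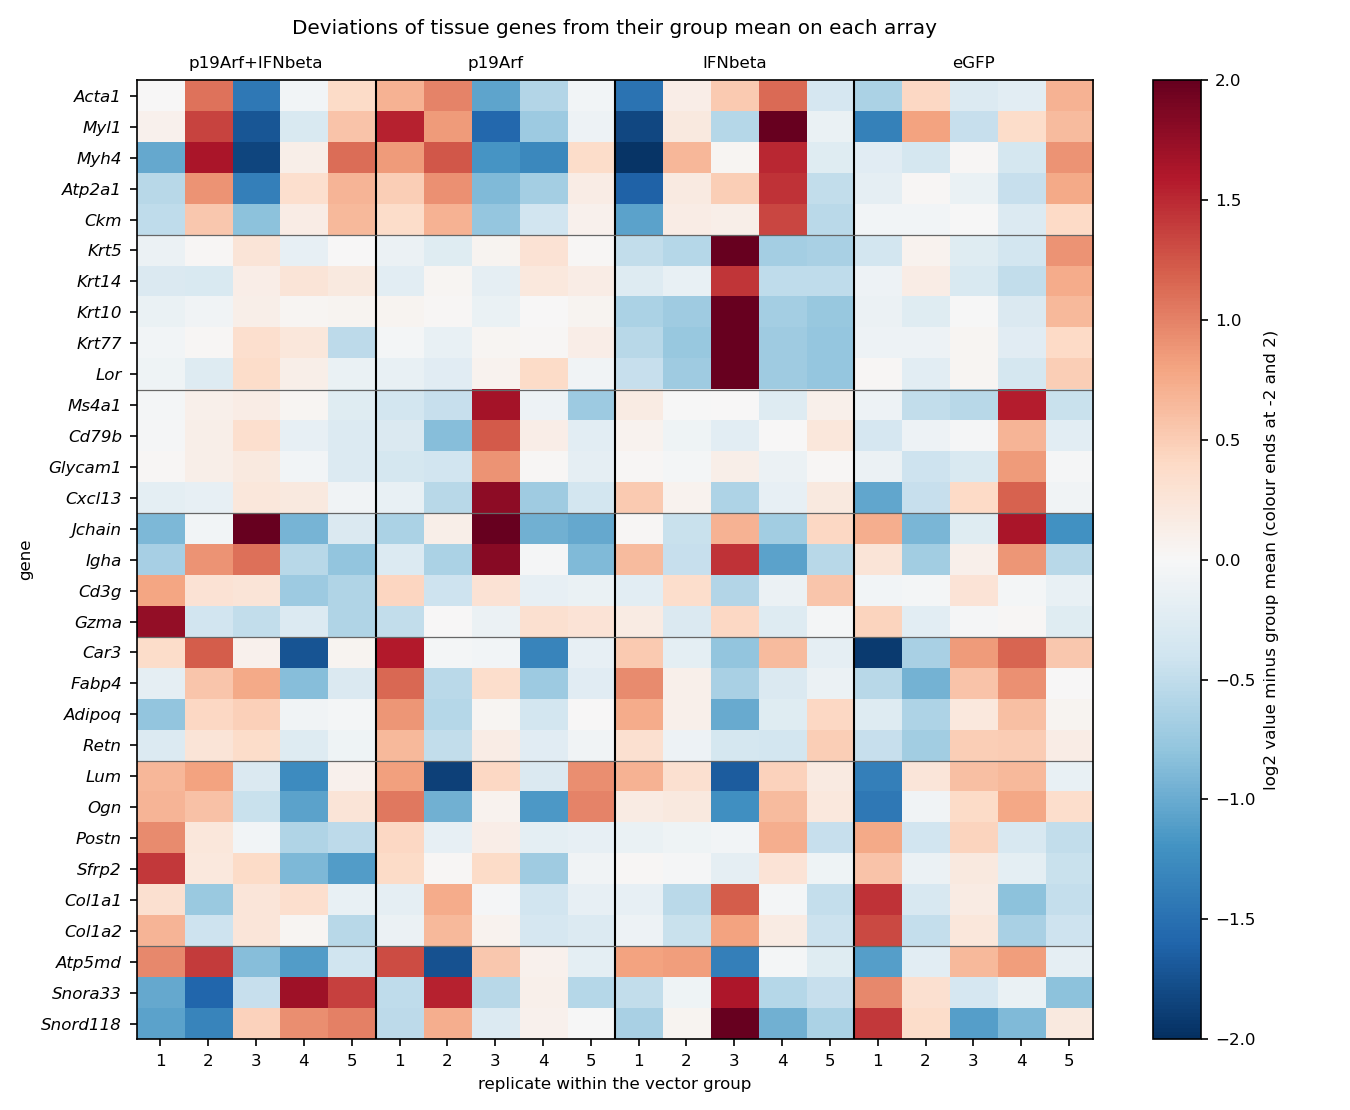
Deviations of 31 genes (rows) from the mean of the array's vector group on 20 arrays (columns, ordered by group and replicate), in log2 units, with colours ending at -2 and 2. Muscle genes change from array to array in every group, keratins are high on IFNbeta replicate 3, and B cell and antibody genes are high on p19Arf replicate 3 and eGFP replicate 4.

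Fibroblast and matrix genes did not form 1 set. The list of 26 had a median member correlation of 0.401. Lum stood at 9.21, 9.35, 8.26, 7.29 and 8.63 on the combination arrays, 9.56, 6.88, 9.16, 8.46 and 9.67 on the p19Arf arrays, 10.31, 9.93, 7.95, 10.08 and 9.79 on the IFNbeta arrays, and 8.3, 9.91, 10.27, 10.32 and 9.52 on the eGFP arrays. The lowest array of its group was combination replicate 4, p19Arf replicate 2, IFNbeta replicate 3 and eGFP replicate 1. Ogn, which encodes the related proteoglycan osteoglycin, correlated with Lum at 0.897 (Spearman 0.845), and at 0.899 without p19Arf replicate 2 and IFNbeta replicate 3. Col1a1, a chain of type I collagen, stood at 12.37, 11.32, 12.3, 12.39 and 11.9 on the combination arrays, 11.09, 12.01, 11.25, 10.89 and 11.11 on the p19Arf arrays, 10.62, 10.24, 11.99, 10.74 and 10.3 on the IFNbeta arrays, and 12.12, 10.36, 10.85, 9.86 and 10.21 on the eGFP arrays. It was high for their groups on IFNbeta replicate 3 and eGFP replicate 1, where Lum was low, and the 2 genes correlated at -0.742 (Spearman -0.493, and -0.566 without those arrays). Col1a1 and Col1a2, which together form the type I collagen fibre, correlated at 0.938 (Spearman 0.869), while Col1a1 and Postn correlated at 0.365. The members that followed the rest of the list most closely were Postn, Thbs2, Mmp2 and Sfrp2 at 0.89 to 0.90, against 0.26 for Lum and 0.08 for Col1a1. Outside the lists, Cdh11, a cadherin of mesenchymal cells, and Bgn, the proteoglycan biglycan, were nearest, at 0.940 and 0.910.

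Fat genes varied on many arrays by moderate amounts. Car3 stood at 9.64, 10.49, 9.36, 7.55 and 9.32 on the combination arrays, 10.45, 8.82, 8.8, 7.54 and 8.7 on the p19Arf arrays, 10.65, 9.93, 9.34, 10.75 and 9.95 on the IFNbeta arrays, and 7.2, 8.47, 9.97, 10.27 and 9.65 on the eGFP arrays. Fabp4, the lipid carrier of fat cells, stood at 8.4, 9.13, 9.33, 7.72 and 8.28 on the combination arrays, 9.61, 7.91, 8.8, 7.73 and 8.22 on the p19Arf arrays, 10.0, 9.15, 8.41, 8.77 and 8.93 on the IFNbeta arrays, and 7.8, 7.41, 8.93, 9.27 and 8.36 on the eGFP arrays. Both were low on combination replicate 4, p19Arf replicate 4 and eGFP replicate 1, and IFNbeta replicate 1 was among the highest for both. They correlated at 0.789 (Spearman 0.771, and 0.786 without combination replicate 4 and eGFP replicate 1). Adipoq, which encodes the hormone adiponectin, ran from 6.17 to 8.04, and Plin1, which coats lipid droplets, from 6.90 to 8.09. Fabp4, Retn, Adipoq and Cidec followed the rest of the list at 0.88 to 0.92, and Car3 at 0.59. The adipocyte score had an SD of 0.261 and a median member correlation of 0.494, and was highest relative to its group on IFNbeta replicate 1 (0.369) and p19Arf replicate 1 (0.350). It correlated with the array spread, described next, at 0.573. Hp, an acute-phase protein that fat cells also secrete, was the nearest outside gene at 0.870. The score correlated with fast muscle at -0.333 (Spearman -0.280, and -0.184 without IFNbeta replicate 1), and Ucp1 and the other 5 brown fat genes had a score SD of only 0.090.

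A further share of the variation ran across much of the genome and through many lists. The first principal component of the deviations held 41.2% of the within-group variance, the second 19.95% and the third 6.7%. Without p19Arf replicate 2 the share of the second was 12.5%. Array scores on the first component correlated at -0.971 with the array spread, meaning the SD of all log2 values on an array as a deviation from its group, which ran from 1.99 to 2.15 before centring. At 1 end of the component stood Snord118, Snora33, Snord15a, Snora44, Snora23 and Snora20, small nucleolar RNAs that guide the modification or cleavage of ribosomal RNA, with Rnu3a and DQ267102. At the other end stood Atp5md, Lum, Car3, Ogn, Atp6v0d2, Rfc4, Zfp931 and Mindy2.

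Snora33 stood at 8.88, 8.32, 9.44, 11.6 and 11.27 on the combination arrays, 9.38, 11.43, 9.34, 9.99 and 9.32 on the p19Arf arrays, 8.24, 8.64, 10.35, 8.15 and 8.26 on the IFNbeta arrays, and 9.7, 9.06, 8.4, 8.6 and 7.91 on the eGFP arrays. Atp5md stood at 11.65, 12.09, 9.85, 9.58 and 10.3 on the combination arrays, 12.31, 9.26, 11.54, 11.08 and 10.8 on the p19Arf arrays, 12.31, 12.34, 10.14, 11.47 and 11.27 on the IFNbeta arrays, and 10.43, 11.33, 12.19, 12.38 and 11.36 on the eGFP arrays. Arrays high in the first were low in the second, as on p19Arf replicate 2, combination replicate 4 and IFNbeta replicate 3. Of the 51 small nucleolar RNAs, 19 had an SD over 0.5, and their score had an SD of 0.385 and a median member correlation of 0.671. The largest module of the 500 most variable genes, 259 genes led by Car3, Atp5md, Lum and Ogn, correlated at 0.886 with the array spread and at -0.813 with the small nucleolar RNA mean. A second module of 62 genes held 27 small nucleolar RNAs. After quantile normalization, which gives all arrays the same spread, the first component held 37.3% of the variance and the small nucleolar RNA score had an SD of 0.428. Whether that component matched the first one before the normalization was not tested.

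**Figure D4:**
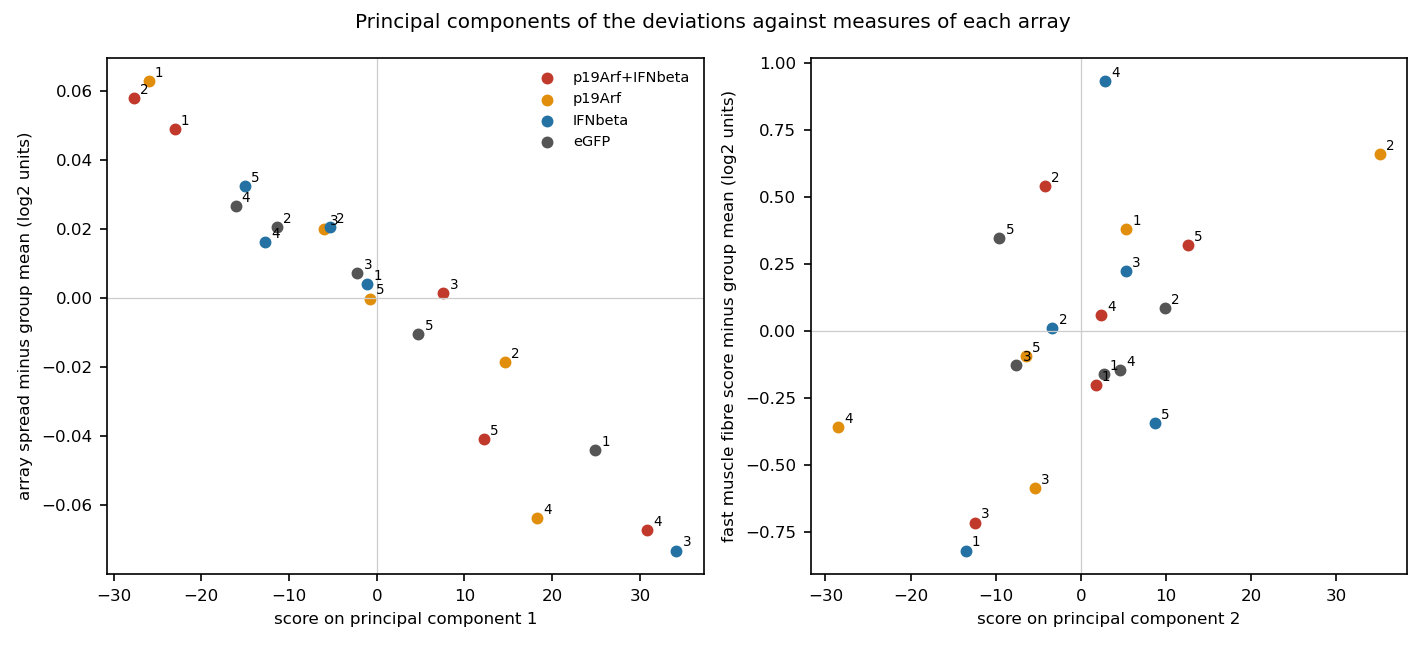
Left, score of each array on principal component 1 of the deviations (horizontal axis) against the array spread as a deviation from its group mean (vertical axis, log2 units). Right, score on component 2 against the fast muscle score as a deviation. Points are the 20 arrays, coloured by vector and numbered by replicate; the correlation is -0.971 on the left and 0.538 on the right.

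The second component joined muscle with small RNA. Myh4, Tnnc2, Myl1, Myh1 and Acta1 stood at 1 end together with Snora33, Snord42a and Snord49a, and Prp2, Lpp, Olfr316, Atp5md and Mmp3 at the other. Array scores on it correlated at 0.538 with the fast muscle score and at -0.704 with the olfactory receptor mean, and its extremes were p19Arf replicate 2 (35.1) and p19Arf replicate 4 (-28.6), both from the same vector. The third component set Jchain, Igha, Sfrp2, Col1a2 and Saa3 against Myl1 and Myh4.

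Lists of proliferation and of macrophages were among those that followed the array spread. The cell cycle score, from genes such as Mki67, Top2a and Cdk1, had an SD of 0.239 and a median member correlation of 0.819, and it correlated at 0.927 with the array spread. The macrophage score had an SD of 0.198 and correlated at 0.785 with the spread and at -0.825 with the small nucleolar RNA mean. The 2 scores correlated with each other at 0.780 (Spearman 0.71), and at 0.574 after quantile normalization. Fast muscle and B cell scores correlated with the spread at only 0.031 each, while the upper epidermis did so at -0.630. The correlation was -0.823 for lung epithelium, -0.797 for heart muscle, -0.747 for simple epithelium, -0.739 for sebaceous gland and -0.705 for hair follicle. It was 0.567 for the fibroblast score and -0.683 for the olfactory receptor mean.

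Several lists moved with the olfactory receptor mean, which was itself highest on p19Arf replicate 4, where 986 of 1027 such genes were above their group mean. Its correlation was 0.768 with the hair follicle score, 0.763 with sebaceous gland, 0.859 with melanocyte, 0.785 with Schwann cell and nerve and 0.884 with lung epithelium. Other lists below the middle of the range of levels followed it less, and to differing degrees. The correlation was 0.682 for simple epithelium, 0.663 for tendon and cartilage, 0.593 for milk gland and 0.564 for sex-linked genes. It was 0.196 for B cells, 0.0341 for NK and cytotoxic genes, 0.0111 for lymphatic endothelium and -0.373 for fast muscle. With the olfactory receptor mean regressed out, the SD of the hair follicle score was 0.112 instead of 0.169, and its median member correlation 0.326 instead of 0.555. Sftpc, surfactant protein C of lung alveoli, ran only from 5.74 to 6.87, and the simple epithelial genes Krt8, Krt18 and Epcam from 7.42 to 8.15, 6.66 to 7.58 and 6.11 to 6.92. With no detection call in the table, presence of these transcripts cannot be told from these values.

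The 6 modules together took up 408 of the 500 genes, the last of which had an SD of 0.4124, and the first gene left out 0.4121. A module of 33 genes held 9 upper-layer and 4 basal epidermal genes with Perp, Dsp and Trim29, and its mean deviation was 1.94 on IFNbeta replicate 3. A module of 25 held 18 fast-fibre genes with Des, Ckm, Pygm and Fhl1, with mean deviations of 1.14 on IFNbeta replicate 4 and -1.04 on IFNbeta replicate 1. A module of 11 joined Col1a1 and Col1a2 to the interferon-induced genes Slfn4, Oas2, Mx2, Oas1b and Ifi206 and to Arg1, the arginase of some macrophages. Its mean deviation was 0.938 on IFNbeta replicate 3, and it correlated with the small nucleolar RNA mean at 0.665. Mx2 was at 8.62 on that array, and at 7.23 to 7.72 on the other 4 IFNbeta arrays.

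Several tissues varied little. The endothelial score had an SD of 0.069 and the pericyte score 0.086, and Pecam1, an adhesion protein of endothelial cells, ran from 8.10 to 8.90. Smooth muscle (0.092), heart muscle (0.099), and tendon and cartilage (0.0997) were similar. Of 10 erythroid genes only Alas2, for heme synthesis in red cell precursors, and Slc4a1, the red cell anion exchanger, were measured. Alas2 was 8.33 on eGFP replicate 5 and 6.52 to 7.17 on the other 19 arrays. Xist, transcribed from the inactive X chromosome, ran from 12.08 to 12.80, and the Y-linked Eif2s3y from 3.60 to 4.18, so no array stood apart in them.

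Of the 861 pairs of list scores, 141 correlated above 0.5 and 61 below -0.5. Fast muscle correlated with the upper epidermis at 0.054 (Spearman -0.032, and -0.191 without IFNbeta replicate 3), with the B cell score at -0.524 (Spearman -0.612), and with lymph node stroma at -0.641 (Spearman -0.698, and -0.660 without IFNbeta replicates 4 and 1). Adipocyte and fibroblast scores correlated at 0.174 (Spearman 0.274). All pairs of the 42 lists share the same 20 arrays and the same centring and are given as a description with no p-value.

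**Figure D5:**
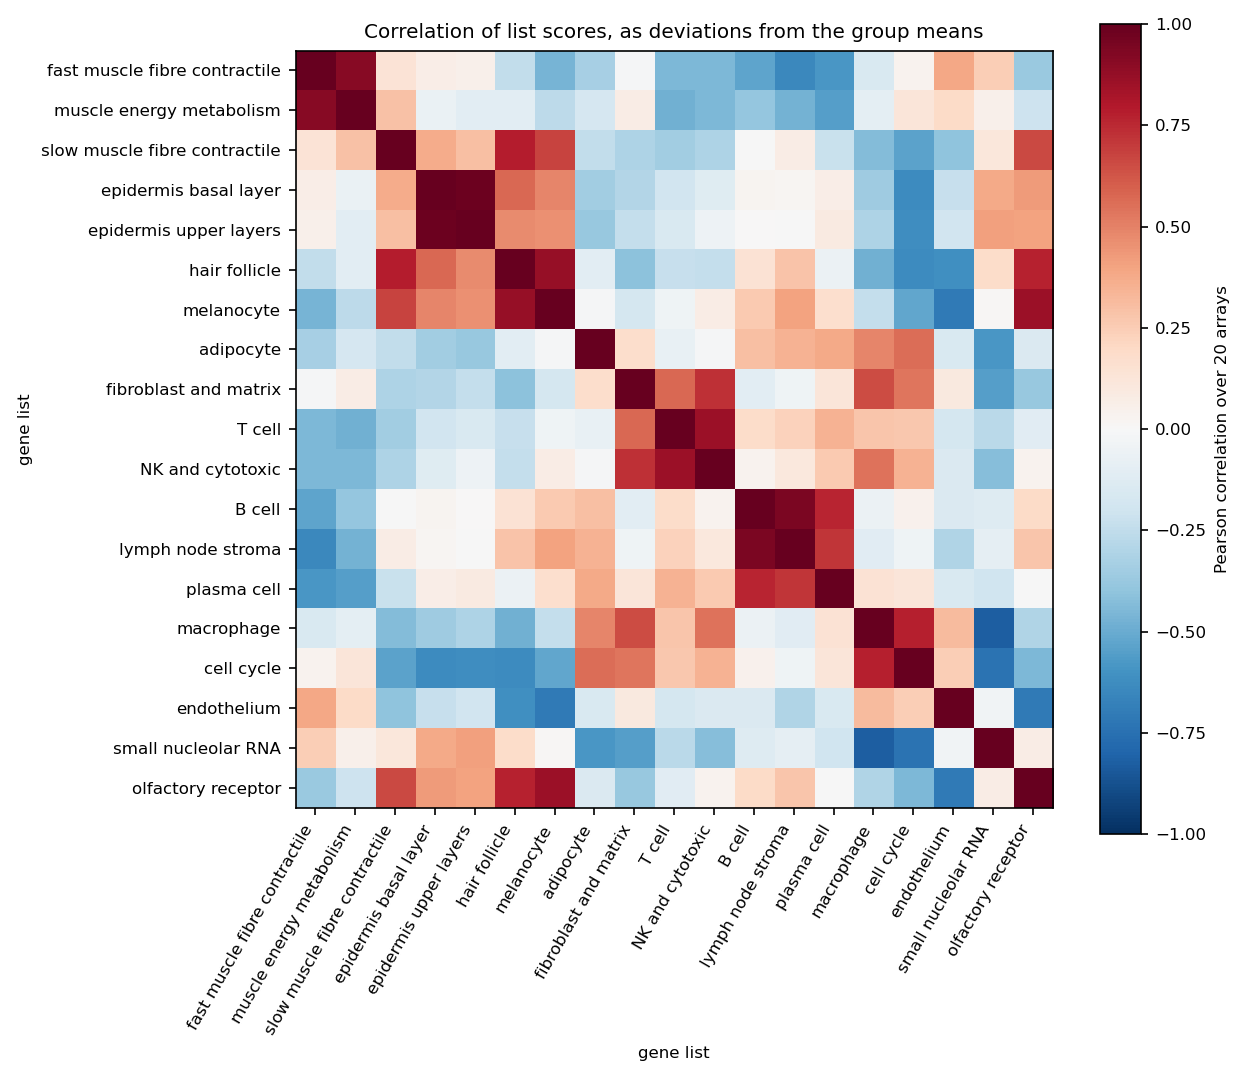
Pearson correlation, over 20 arrays, between the scores of 19 gene lists as deviations from the group means (colour scale from -1 to 1). Fast muscle with muscle energy metabolism (0.907), both epidermal layers (0.980) and B cells with lymph node stroma (0.939) form separate blocks, and hair follicle and melanocyte lie with olfactory receptors.

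Whether arrays of a vector group varied more among themselves than the eGFP arrays was tested gene by gene with limma on the size of the deviations, with Benjamini-Hochberg adjustment over all 19938 genes. In the combination 49 genes passed at an adjusted p under 0.05, 48 of them more variable than in eGFP, which is 0.246% of genes. In p19Arf 3 passed (0.015%), and in IFNbeta 0 passed, where 673 had an unadjusted p under 0.05. Outside the olfactory receptors, none of the members of the lists named above passed. The receptor gene Olfr190 did so in p19Arf, with an SD of 0.57 there and 0.11 in eGFP (limma adjusted p = 0.0439). Nap1l1, a histone chaperone, had the smallest p in the combination: its SD was 0.54 there and 0.06 in eGFP, a difference in the size of deviations of 0.459 (SE 0.068, limma adjusted p = 0.011). Krt6b, a keratin of injured epidermis, was the 1 gene that was less variable, with an SD of 0.25 in the combination and 0.84 in eGFP (limma adjusted p = 0.0258). These calls rest on the mean as the centre of a group: with the group median as the centre 0, 0 and 0 genes passed, with 383, 310 and 55 at an unadjusted p under 0.05 in the combination, p19Arf and IFNbeta, and on simulated data the test with the mean called more genes than its threshold allows, so its counts are given only as a description. Single arrays also decided them: the combination gave 0 genes without its replicate 4 and 549 without its replicate 3, and p19Arf 0 without its replicate 2 and 25 without its replicate 5.

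The shares at an unadjusted p come from the same over-calling test and are inflated. At an unadjusted p under 0.05, 9.73% of all genes were more variable in the combination than in eGFP, 8.6% in p19Arf and 2.06% in IFNbeta. Less variable genes made up 0.782%, 0.737% and 1.31% in the same order of vectors. Of the 28 fast muscle genes 6, 7 and 11 were more variable, and of the 23 upper epidermal genes 0, 1 and 13, with IFNbeta replicate 3 the highest array for 18 of the 23. Of the 16 B cell genes 0, 4 and 0 were, and of the 51 small nucleolar RNAs 20, 6 and 1. With the group median as the centre the shares of all genes were 1.86%, 1.49% and 0.206%, and the counts were 2, 1 and 4 fast muscle genes, 0, 1 and 0 upper epidermal genes, 0, 1 and 0 B cell genes, and 3, 1 and 0 small nucleolar RNAs. With the mean as the centre, the median difference in the size of deviations over the fast muscle genes was 0.164 in the combination, 0.259 in p19Arf and 0.335 in IFNbeta, beside 0.036, 0.043 and 0.011 over all genes.

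The spread within groups is also the error of any comparison of the vectors. The standard error of a difference between a vector and eGFP had a median of 0.117 over all genes and 0.46 over the 30 most variable genes. No gene differed from eGFP in its mean at an adjusted p under 0.05 in limma, which is 0% of genes for each vector, and 3513, 1445 and 557 genes had an unadjusted p under 0.05 in the combination, p19Arf and IFNbeta. They were higher for 6.18% of all genes in the combination, 2.84% in p19Arf and 1.34% in IFNbeta, and lower for 11.4%, 4.4% and 1.45%. Of the 28 fast muscle genes 16, 1 and 16 were higher at that p and 0 lower, with median differences of 0.611, 0.333 and 0.609 beside 0.021, 0.018 and -0.017 over all genes. Adding the fast muscle and epidermis scores as covariates also left 0 genes for each vector. With limma's weights for single arrays the counts were 166, 0 and 5. Without eGFP replicate 1 the combination had 84 genes. Myh4 was 1.31 higher in the combination (SE 0.63, adjusted p = 0.282), 1.02 higher in p19Arf (SE 0.63, adjusted p = 0.664) and 1.64 higher in IFNbeta (SE 0.63, adjusted p = 0.9998) than in eGFP by limma, and none of these passed. All 3 comparisons share the eGFP arrays.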

How the data were processed

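Total RNA of 20 tumors, extracted with Trizol per the labels' protocols, was hybridised to 1-colour Affymetrix arrays. The deposited table holds 1 normalized log2 value per probe set and array, made by the authors with Affymetrix Expression Console and GCOS, per the submitters' processing notes. The log2 scale was read from the values (2.33 to 14.69), while the summary method and software versions were not stated there. The table has no detection call, which limits statements on presence, and the 5 arrays of a group limit the precision. Of 35556 probe sets, 21789 had 1 gene symbol, 1621 several and 12146 were not listed. Symbols came from RefSeq, matched by the gene identifiers in GEO's platform annotation. The 91 probe sets whose identifier had no match kept the symbol of that annotation. Promoter sequences came from RefSeq (GRCm38.p6).

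Deviations from the group mean, their SD, correlations, principal components and modules were computed in Python 3.11.15 (numpy 2.4.6, scipy 1.17.1). Means and sizes of deviations, multiplied to allow for 5 arrays a group, went into linear models in limma 3.58.1 (R 4.3.3), checked on simulated data, where the test on sizes of deviations called too many genes. The members and lists were chosen with earlier results of these data known. Genes named are the most variable ones, members of the lists, and the nearest 5 outside a list. Alternatives were other scalings, filters, centres and weights, a replicate block and leaving out each array. With 1 array left out the group means were computed anew, and with 2 left out of a correlation they were not. Labels give no scan or extraction batch. Deviations of arrays with the same replicate number correlated at -0.6235 to 0.6569 (median -0.0476), and 11 of 30 pairs exceeded 0.1. Those of arrays with different numbers correlated at -0.7054 to 0.7631 (median 0.001), and 50 of 120 pairs exceeded 0.1. Tumor numbers in the labels recur across groups, and of 11 such pairs 1 exceeded 0.1 (-0.4638 to 0.3823, median -0.1555).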

Additional observations from a re-analysis of the deposited data

Results flagged for a closer look

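In 288 sets of 5 arrays (42 list scores and 30 genes in 4 groups), the highest or lowest array was set apart from the other 4 by more than Dixon's 95% critical value in 30 cases, 14 of list scores and 16 of single genes. Chance sets apart about 1 in 20 groups of values that were not selected. The 30 genes were taken as the most variable ones, which favours genes with an array standing apart, so that rate does not apply to their 16 cases. The lists are not independent of each other. IFNbeta replicate 3 accounted for 13 of the 30.

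On IFNbeta replicate 3, skin stood apart: the basal epidermis score was 8.32 and the upper epidermis score 7.84, with Krt77 at 10.23, Perp at 10.04, Krt10 at 10.41 and Lor at 9.42. The small nucleolar RNAs Snora33 (10.35), Snord15a (9.89) and Snora20 (9.44) were high there, whereas the matrix genes Lum (7.95) and Ogn (7.09), Atp6v0d2, a subunit of the vacuolar proton pump (7.90), and the cell cycle score (10.05) were low.

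B cell or antibody signal stood apart on 3 arrays. On combination replicate 3 Jchain was 9.49 and the dendritic cell score 7.82. On p19Arf replicate 3 the plasma cell score was 8.34, Igkv9-120 was 9.69 and a kappa segment of the Igkv10 family was 8.56, and Krt10 was low at 7.02. On eGFP replicate 4 the B cell score was 7.27 and the same Igkv10 segment 7.67.

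On p19Arf replicate 4, where the olfactory receptor mean was highest, the tendon and cartilage score was 7.36, the erythroid score 7.51, the milk gland score 6.07 and the endothelium score, the lowest of its group, 8.14. On p19Arf replicate 2 the small nucleolar RNA score was 10.46 and DQ267102 was 9.93. The fibroblast and matrix score was 9.66 on IFNbeta replicate 4, the hypoxia and glycolysis score was lowest on p19Arf replicate 5 at 10.53, and the erythroid score was 8.20 on eGFP replicate 5.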

How the results depend on the processing

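Of the values that answer a comparison, 214 stayed close to the reported one under the alternatives other than leaving out arrays, and 21 moved. Close meant a change smaller than the value's SD between the vector groups, or for counts a limited ratio. For shares of variance it meant a change smaller than their standard error from leaving out each array. Only correlations could change sign, and those larger than their SD between groups did not. The cause of the moves was not tested. Quantile normalization gave a median correlation of 0.403 among hair genes, 0.669 between hair follicle and olfactory receptor scores, 0.574 between cell cycle and macrophage scores, and 15 genes differing in spread in the combination and 1 in IFNbeta. Centring arrays on their median gave 32 in the combination. Without the 25% of genes lowest in level, the adipocyte score had an SD of 0.305 and a median correlation of 0.590, and 1 gene differed in spread in p19Arf. Trended and robust moderation gave 88 in p19Arf and 8 in IFNbeta, and the group median as the centre 0 in the combination and 0 in p19Arf. Array weights gave 166 and 5 genes differing in mean in the combination and IFNbeta. With the olfactory receptor mean regressed out, chosen after seeing the data, the hair follicle score had an SD of 0.112 and a median correlation of 0.326.

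By replicate number, 3 of 20 arrays correlated best with their own number. Arrays sharing a tumor number had a median correlation of -0.1555 over 11 pairs. Whether such arrays share an animal or a batch was not tested. With a replicate block the within-group share of variance was 59.4%, the adipocyte SD 0.287, and 0 genes differed in spread in the combination and 0 in p19Arf. The block also uses up degrees of freedom, which by itself lowers that share of variance.

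Leaving out 1 array at a time gave 5 to 9 genes with an SD over 1, 4 to 9 modules, 0 to 549 genes differing in spread in the combination, 0 to 25 in p19Arf and 0 to 1 in IFNbeta, and 0 to 84 differing in mean in the combination. The adipocyte SD was 0.247 to 0.269 and its median correlation 0.440 to 0.557, those of T cell genes 0.378 to 0.554 and of upper epidermal genes 0.433 to 0.751. The correlation of both epidermal layers was 0.946 to 0.993, and of hair follicle with olfactory receptors 0.734 to 0.880.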
